A study of Homo sapiens with 16 samples.

Results

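CAL148 and BT474 are established human breast cancer cell lines, and their monolayers in this series were grown in the same medium. By general knowledge, not by the labels, CAL148 is a triple-negative line, whereas BT474 carries extra copies of ERBB2 and expresses the oestrogen and progesterone receptors. The comparison rests on 4 of the 16 libraries of the series, chosen by the names of their columns: 2 libraries of CAL148 and 2 of BT474, all from 2D monolayers in Dulbecco's modified Eagle's medium (DMEM) with 10% serum. The series also holds monolayers of HCC1806 and ZR-75-30 in another medium, and spheroids of HCC1806 and BT474. Each subtype is represented here by 1 line, so that a difference between the lines and a difference between subtypes cannot be told apart. The labels do not say whether the replicates were separate cultures, and p-values therefore measure only the spread between these libraries.

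Breast cancers are sorted by the receptors their cells carry. ESR1 and PGR encode the oestrogen and progesterone receptors, ligand-bound transcription factors of hormone-sensing luminal cells. ERBB2 encodes a receptor tyrosine kinase that is often amplified together with its neighbours on the long arm of chromosome 17. FOXA1, GATA3 and SPDEF are transcription factors of the luminal lineage. The retinoblastoma protein RB1 holds E2F transcription factors inactive until cyclin D1 (CCND1) and its kinase release them.

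Library totals were 29.7 and 34.6 M counts for CAL148 and 41.2 and 41.8 M for BT474, against 29.7 to 72.5 M over the series. A count of 0 allows up to 3 counts, which is 0.0916 and 0.0777 CPM (counts over the scaled library total in M) in the CAL148 libraries and 0.0809 and 0.0798 CPM in those of BT474; such limits cover counting error only. The CAL148 replicates differed more from each other than the BT474 replicates did: log2 differences within a pair of replicates had an SD of 0.884 over 14063 genes in CAL148 and 0.377 over 13397 genes in BT474. Mitochondrial genes held 1.85% and 2.80% of counts in CAL148 and 2.43% and 2.31% in BT474. Of 18 leukocyte markers, 2 were expressed enough to be tested, 0 differed, and 5 had 0 counts in all 4 libraries; their summed level was 1.37 to 2.14 CPM in CAL148 and 1.68 to 2.18 CPM in BT474. Of 14 fibroblast markers 4 were tested, 0 higher and 3 lower in CAL148, and the list summed to 20.5 and 36.4 CPM in CAL148 against 143 and 119.7 CPM in BT474. Of 13 endothelial markers 4 were tested, 0 higher and 3 lower (VWF, ESAM and CLDN5), with sums of 6.51 and 4.87 CPM against 18.1 and 20.2 CPM. Of 20 neural and neuroendocrine markers 12 were tested, 2 higher and 1 lower, with sums of 30.1 and 75.3 CPM against 31.7 and 33 CPM. Of 11 adipocyte markers 5 were tested, 2 higher and 1 lower, with sums of 125.7 and 134 CPM against 105.5 and 98.2 CPM. Over all tested genes 18.3% were higher and 20.6% lower in CAL148. Of the tested markers, 75% of fibroblast, 75% of endothelial, 8.33% of neural and 20% of adipocyte genes were lower. In the same order 0%, 0%, 16.7% and 40% were higher. The part of these cell types in the results was not tested.

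Of 58735 genes counted by the authors, 17652 passed the filter on low counts, and 6870 of them (38.9%) differed at an adjusted p under 0.05 in edgeR's quasi-likelihood test. In CAL148, 3229 genes (18.3%) were higher and 3641 (20.6%) lower than in BT474, and the median log2 fold change (CAL148 minus BT474) over all tested genes was 0.02. The difference was at least 4-fold for 1507 of the higher and 1546 of the lower genes, and at least 32-fold for 444 and 630. The libraries of the lines did not overlap for 13144 tested genes (74.5%), 37.2% with CAL148 above and 37.3% with CAL148 below. With BT474 replicate 1 left out, the counts fell to 526 higher and 930 lower, and with BT474 replicate 2 left out to 525 and 928 (the spread then came from the CAL148 pair, and the lone BT474 library was assumed to vary like it). Libraries were left out 1 at a time throughout, so that "without either replicate" refers to each of 2 separate fits. In those fits, as in the other settings tried, 0 of the genes called in the reported fit were called in the opposite direction. Some genes not called in the reported fit changed direction with the CAL148 library left out, ABCC11, ATF3 and MKI67 among them.

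**Figure D1:**
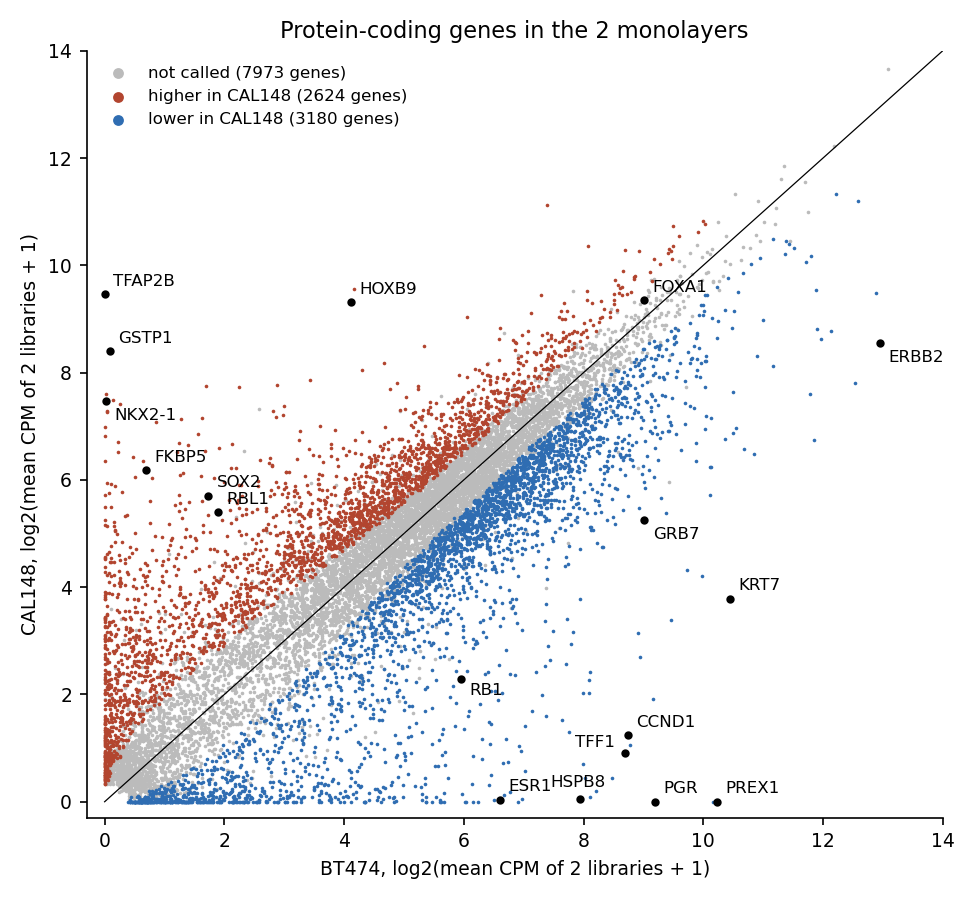
Mean expression of protein-coding genes in BT474 (x axis) and CAL148 (y axis), each as log2(mean CPM of 2 libraries + 1), with called genes in colour and named genes as black points. ERBB2, KRT7 and PGR lie far below the line of equal level, TFAP2B, GSTP1 and HOXB9 far above it, and FOXA1 near it.

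The 3 receptors that define breast cancer subtypes were all lower in CAL148. ERBB2, the receptor kinase, was measured at 382 and 365 CPM in CAL148 and 8478 and 7402 CPM in BT474. Its log2 fold change was -4.41, SE 0.20, adjusted p = 0.000357, with both CAL148 libraries far below both of BT474. ESR1 was at 0 and 0.0518 CPM in CAL148 and 75.7 and 118 CPM in BT474, a ratio of 3456 (95% counting interval 956 to 28541), adjusted p = 0.000445. PGR had 0 counts in both CAL148 libraries and 389 and 778 CPM in BT474, at least 13903-fold lower in CAL148, and it was among the 12 protein-coding genes with the lowest fold change. In bulk RNA, fewer cells with a transcript and less of it in each cell cannot be told apart, so these values describe the cultures as wholes. Hormone receptors as a list were called higher for 2 (10.5%) and lower for 9 (47.4%) of 19 tested members (median log2 fold change -0.42). GPER1, a membrane oestrogen receptor, was at 0.183 and 0.104 CPM in CAL148 and 20.7 and 25.4 CPM in BT474 (log2 fold change -7.32). Of the receptors that were higher, RARB, a retinoic acid receptor, was at 10.5 and 12.3 CPM in CAL148 and 1.13 and 0.798 CPM in BT474, and NR3C1, the glucocorticoid receptor, differed by 0.82 on the log2 scale (adjusted p = 0.0349). Hormone receptors numbered 1 higher and 6 lower without BT474 replicate 1 and 1 and 5 without BT474 replicate 2. PGR lost the call without CAL148 replicate 2, NR3C1 without either BT474 replicate.

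**Figure D2:**
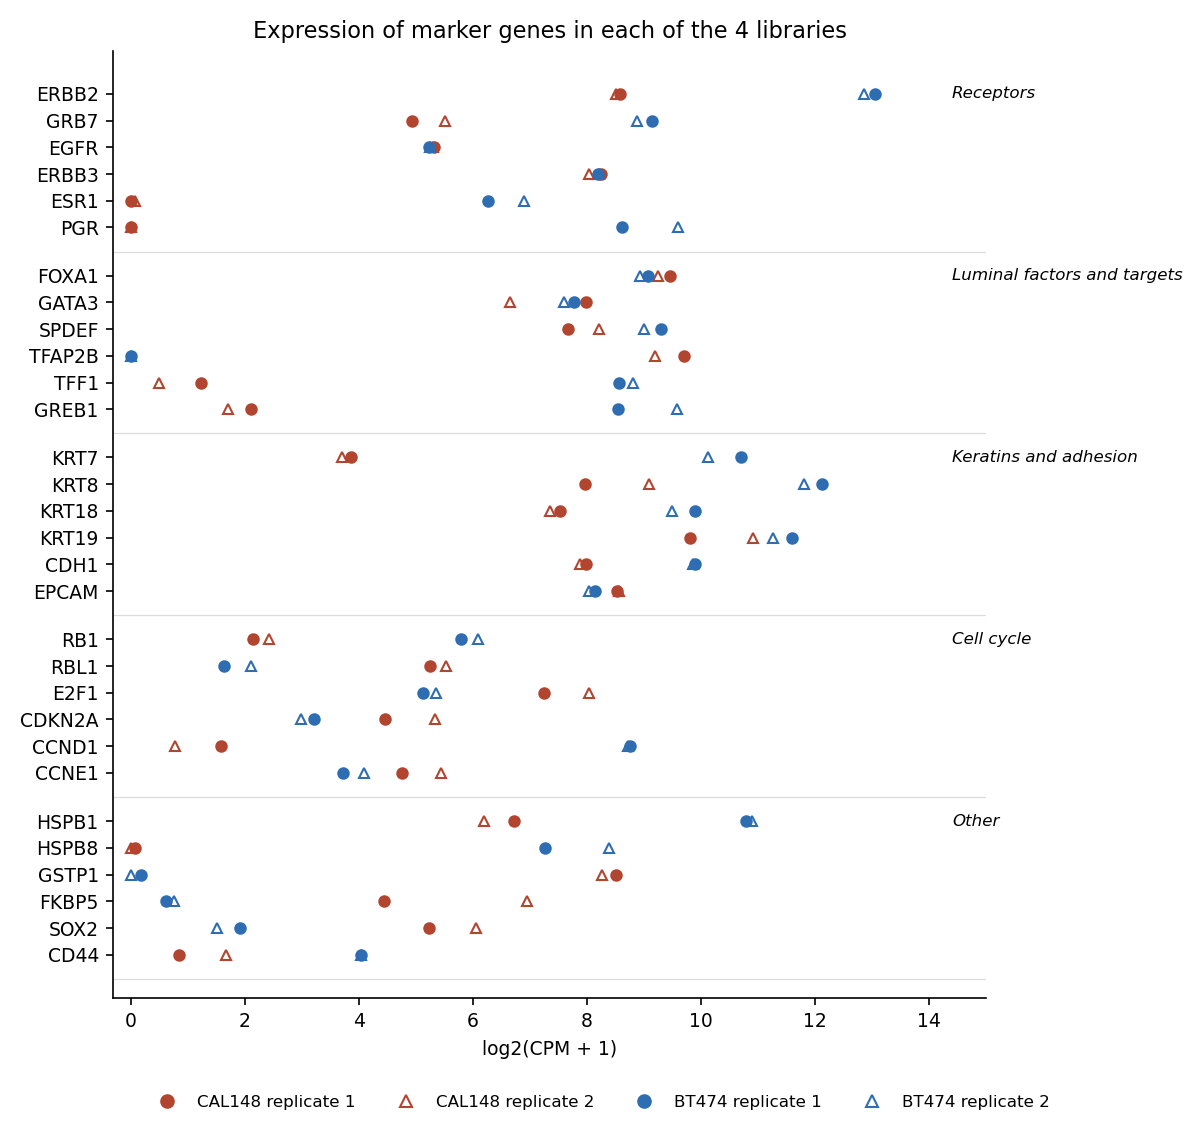
Expression of 30 marker genes in each library as log2(CPM + 1), with CAL148 in red, BT474 in blue, replicate 1 as filled circles and replicate 2 as open triangles. ESR1, PGR, TFF1 and CCND1 sit near 0 in both CAL148 libraries and TFAP2B in both BT474 libraries, while EGFR, ERBB3 and FOXA1 differ little.

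Targets of the oestrogen receptor were mostly lower in CAL148, called higher for 2 (8.33%) and lower for 15 (62.5%) of 24 tested members (median log2 fold change -2.25), against 18.3% higher and 20.6% lower over all genes. For each list, the percentages in brackets are shares of its tested members and stand beside the same 18.3% and 20.6%. Those shares belong to the reported fit only. List counts from fits with a library left out cannot be set against them. Calls over all genes also fell without a BT474 library and rose without a CAL148 library. TFF1, a secreted trefoil peptide, was at 1.34 and 0.415 CPM in CAL148 and 379 and 447 CPM in BT474 (log2 fold change -8.90, SE 0.59, adjusted p = 0.000875), and GREB1, a cofactor of the receptor, at 3.30 and 2.28 CPM in CAL148 and 374 and 762 CPM in BT474 (log2 fold change -7.67, adjusted p = 0.000821). IGFBP4 and SERPINA1 were likewise barely counted in CAL148, at 1.71 and 0.466 and 0.0611 and 0.155 CPM, against 393 and 481 and 55.6 and 67.8 CPM in BT474. MYB and CELSR2 were the members that were higher, by 0.93 and 0.96 on the log2 scale. AGR2 was at 545 and 42.1 CPM in CAL148 and 442 and 446 CPM in BT474, so the CAL148 replicates lay on both sides of BT474 and no call was made (adjusted p = 0.692). Oestrogen receptor targets numbered 0 higher and 9 lower without BT474 replicate 1, 0 and 10 without BT474 replicate 2 and 4 and 15 without CAL148 replicate 2. GREB1 lost the call without CAL148 replicate 2, MYB and CELSR2 without either BT474 replicate. AGR2 was called without CAL148 replicate 1.

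Luminal transcription factors were called higher for 8 (38.1%) and lower for 6 (28.6%) of 21 tested members (median log2 fold change 0.05). FOXA1, the pioneer factor that opens chromatin for nuclear receptors, was at 698 and 606 CPM in CAL148 and 535 and 490.0 CPM in BT474 and did not pass the test (adjusted p = 0.148). GATA3 was at 253 and 99.3 CPM in CAL148 and 217 and 194 CPM in BT474; the BT474 values lay between those of the CAL148 replicates (adjusted p = 0.719). TFAP2B, an AP-2 transcription factor, had the largest bound among genes missing from BT474, with 831 and 583 CPM in CAL148 and 0 counts in both BT474 libraries, at least 17345-fold higher. Its relative TFAP2A was also higher (235 and 369 CPM in CAL148 and 99.1 and 92 CPM in BT474), while TFAP2C was lower (50.3 and 90.5 CPM in CAL148 and 221 and 249 CPM in BT474). TBX3 (log2 fold change -3.17) and SPDEF (-1.20) were lower, and EHF (2.06) and TRPS1 (1.15) higher. Luminal factors numbered 2 higher and 3 lower without BT474 replicate 1, 3 and 2 without BT474 replicate 2 and 7 and 10 without CAL148 replicate 1. TFAP2A, TFAP2C, SPDEF and TRPS1 lost the call without either BT474 replicate. FOXA1 was called without CAL148 replicate 2, GATA3 without CAL148 replicate 1.

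Androgen response genes were mixed, called higher for 5 (31.2%) and lower for 4 (25%) of 16 tested members (median log2 fold change 0.45). FKBP5, a chaperone of steroid receptors, was at 20.8 and 122 CPM in CAL148 and 0.539 and 0.692 CPM in BT474, well apart in both CAL148 libraries although these differed from each other (log2 fold change 6.85, SE 1.08, adjusted p = 0.00946). SLC45A3, a solute carrier known from prostate, was at 42.2 and 52.1 CPM in CAL148 and 1.67 and 1.62 CPM in BT474 (log2 fold change 4.84), whereas NDRG1 (-1.76) and ACSL3 (-1.04) were lower. KLK2, KLK3 and KLK4 had 0 counts in all 4 libraries. Androgen response genes numbered 1 higher and 2 lower without BT474 replicate 1 and 1 and 1 without BT474 replicate 2. Apocrine and milk-type secretory genes were called higher for 4 (21.1%) and lower for 10 (52.6%) of 19 tested members (median log2 fold change -1.74). The mammaglobin SCGB2A2 was at 0 and 0.0518 CPM in CAL148 and 43.4 and 33.6 CPM in BT474, and MUCL1 at 3.15 and 5.54 CPM in CAL148 and 189 and 103 CPM in BT474 (log2 fold change -5.06). APOD ran the other way, at 81.7 and 229 CPM in CAL148 and 0 and 0.0532 CPM in BT474, a ratio of 6016 (95% counting interval 1665 to 49683). ABCC11, an apocrine transporter, was at 136 and 5.16 CPM in CAL148 and 49.3 and 26 CPM in BT474 and was not called (adjusted p = 0.631); without CAL148 replicate 1 its log2 fold change was -2.86. Apocrine genes numbered 3 higher and 5 lower without BT474 replicate 1 and 3 and 6 without BT474 replicate 2. FKBP5 and ACSL3 lost the call without either BT474 replicate. ABCC11 was called without either CAL148 replicate, but lower without replicate 1 and higher without replicate 2.

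The neighbourhood of ERBB2 on chromosome 17 was lower in CAL148 nearly throughout. The genes listed for 17q12 were called higher for 3 (11.1%) and lower for 21 (77.8%) of 27 tested members (median log2 fold change -3.21). The 17q12 genes numbered 0 higher and 19 lower without BT474 replicate 1 and 0 and 19 without BT474 replicate 2. Going along the chromosome, LASP1 (-4.73), RPL19 (-3.40), MED1 (-3.62), STARD3 (-4.42), PGAP3 (-4.03), ERBB2 (-4.41), MIEN1 (-3.37), GRB7 (-3.80), PSMD3 (-4.20), MED24 (-3.90) and THRA (-2.91) were all lower on the log2 scale. GRB7, an adaptor bound by ERBB2, was at 29.5 and 44.5 CPM in CAL148 and 565 and 469 CPM in BT474, with no overlap between the lines. The run ended past THRA: MSL1 was higher (0.68), and CASC3 (0.20), WIPF2 (0.26) and CDC6 (-0.19) were not called, with adjusted p of 0.352, 0.235 and 0.68. An exception lay inside it. PPP1R1B, next to STARD3, was at 40.6 and 385 CPM in CAL148 and 3.37 and 1.06 CPM in BT474, higher in CAL148 (log2 fold change 6.59, SE 1.38, adjusted p = 0.0204), with a large gap between the CAL148 replicates. MSL1 and PPP1R1B lost the call without either BT474 replicate. CDC6 was called without CAL148 replicate 2.

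A sharper switch lay in the HOXB cluster of 17q21, whose genes encode body-axis transcription factors. HOXB2, HOXB3, HOXB4, HOXB5, HOXB6, HOXB8 and HOXB9 were all higher in CAL148. HOXB3 was at 130.1 and 226 CPM in CAL148 and 0.162 and 0.0532 CPM in BT474 (log2 fold change 10.65, SE 0.55, adjusted p = 0.000459) and HOXB9 at 657 and 617 CPM in CAL148 and 16.3 and 16.5 CPM in BT474 (log2 fold change 5.28, SE 0.18, adjusted p = 0.000251). HOXB7, between HOXB6 and HOXB8, was expressed by both lines (108 and 163 CPM in CAL148 and 89.5 and 87.8 CPM in BT474) and was not called (adjusted p = 0.0779). HOXB13, at the far end of the cluster, was lower in CAL148 (42.4 and 41.7 CPM in CAL148 and 146 and 133 CPM in BT474, log2 fold change -1.73), and so were its neighbours CALCOCO2 (-1.90), ATP5MC1 (-2.62), UBE2Z (-2.98) and PHB (-3.21). Over the cluster and its surroundings the calls were higher for 10 (41.7%) and lower for 11 (45.8%) of 24 tested members (median log2 fold change -0.91). HOXB7 was called without CAL148 replicate 1.

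**Figure D3:**
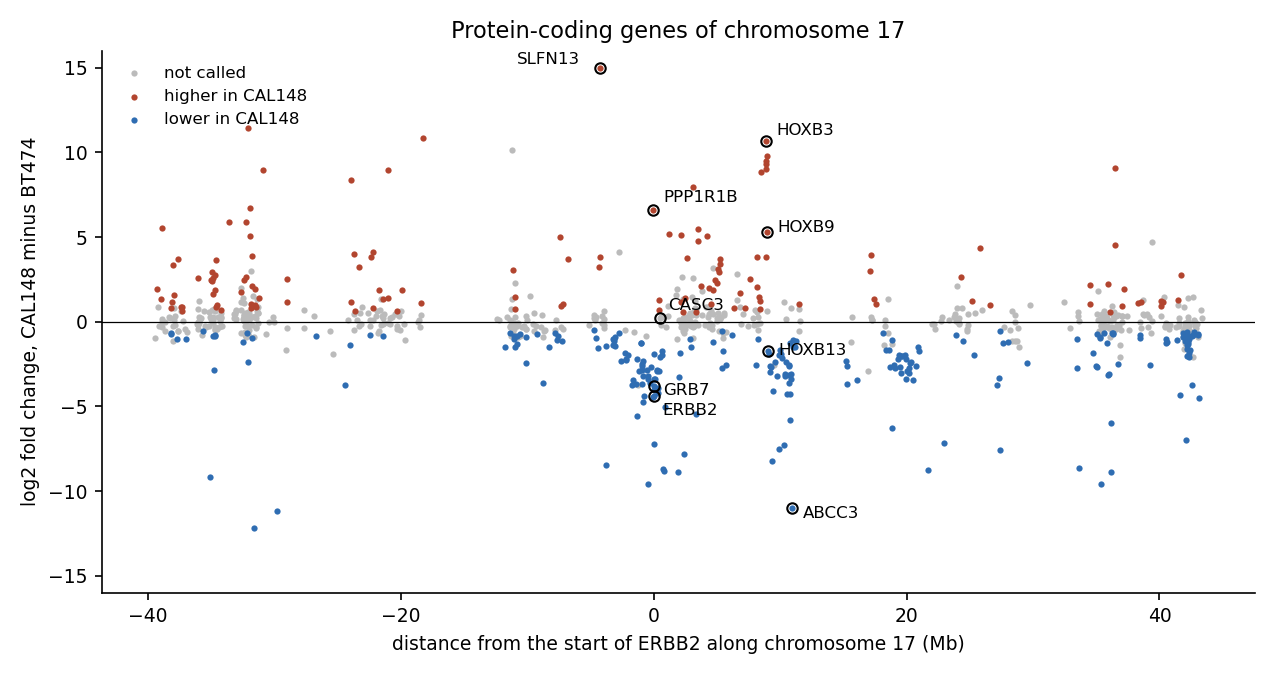
Log2 fold change (CAL148 minus BT474) of protein-coding genes of chromosome 17 by distance in Mb from the start of ERBB2, coloured by call. Genes around ERBB2 and past HOXB13 mostly lie below 0, and the HOXB genes other than HOXB13 above it; fitted values of genes with 0 counts in a line depend on the prior count and are not bounds.

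The genes listed for 20q13 were also mostly lower. They were called higher for 1 (3.45%) and lower for 24 (82.8%) of 29 tested members (median log2 fold change -2.22). The listed genes do not stand for the whole band. Among all tested genes of chromosome 20 between 50 and 60 Mb, 4 of 61 were higher and 34 lower (median -1.74). Between 40 and 50 Mb 17 of 83 were higher and 29 lower (median -0.18). Between 60 and 70 Mb 7 of 67 were higher and 15 lower (median -0.12). NCOA3, a nuclear receptor coactivator, was at 88.3 and 73.4 CPM in CAL148 and 842 and 1047 CPM in BT474 (log2 fold change -3.55), and BCAS1 at 6.60 and 12.4 CPM in CAL148 and 599.6 and 808 CPM in BT474 (log2 fold change -6.21). AURKA, a mitotic kinase, was at 23.1 and 75.1 CPM in CAL148 and 377 and 330.0 CPM in BT474. ZNF217 from the same band was at 360.3 and 371 CPM in CAL148 and 328 and 379 CPM in BT474 and did not pass the test (adjusted p = 0.837). Genes of 20q13 numbered 0 higher and 13 lower without BT474 replicate 1 and 0 and 12 without BT474 replicate 2. Across 505 windows of 5 Mb with at least 10 tested genes, the 2 lowest medians were both on chromosome 17, between 50 and 55 Mb (-2.55, 27 of 38 genes lower) and between 35 and 40 Mb (-2.20, 61 of 90 genes lower); the highest was on chromosome 7 between 20 and 25 Mb (1.62, 14 of 26 genes higher). The order depended on the window size: in 10 Mb windows chromosome 17 between 50 and 60 Mb was again lowest (-1.97, 52 of 86 genes lower), followed by chromosome 8 between 120 and 130 Mb (-1.95, 28 of 35 genes lower), while chromosome 17 between 30 and 40 Mb was at -1.15 and chromosome 7 between 20 and 30 Mb at 0.33. By whole chromosome, 44.3% of the 451 tested genes of chromosome 22 were lower and 6.43% higher, against 31.7% higher and 8.63% lower of the 1808 on chromosome 1. DNA copy number was not measured. AURKA lost the call without either BT474 replicate.

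The simple keratins KRT7, KRT8 and KRT18 were lower in CAL148. Epithelial genes as a list were called higher for 3 (10.0%) and lower for 11 (36.7%) of 30 tested members (median log2 fold change -0.33). Epithelial genes numbered 1 higher and 6 lower without BT474 replicate 1, 0 and 6 without BT474 replicate 2, 6 and 14 without CAL148 replicate 1 and 9 and 15 without CAL148 replicate 2. KRT7 was at 13.5 and 12 CPM in CAL148 and 1668 and 1118 CPM in BT474 (log2 fold change -6.77, SE 0.30, adjusted p = 0.000357), KRT8 at 249.6 and 543 CPM in CAL148 and 4448 and 3583 CPM in BT474 (log2 fold change -3.34) and KRT18 at 184 and 162 CPM in CAL148 and 949 and 715 CPM in BT474 (log2 fold change -2.27). E-cadherin (CDH1) was at 254 and 234 CPM in CAL148 and 952 and 931 CPM in BT474, with no overlap between the lines (log2 fold change -1.95). KRT19, another simple keratin, was at 891 and 1917 CPM in CAL148 and 3101 and 2463 CPM in BT474 and did not pass the test (adjusted p = 0.0955). EPCAM, an epithelial adhesion molecule, was at 368 and 378 CPM in CAL148 and 281 and 261 CPM in BT474 (adjusted p = 0.0561). The basal keratins KRT5, KRT14, KRT17 and KRT6A were too low to test in either line, but KRT15 and KRT16 were tested. KRT15 was at 50.2 and 324 CPM in CAL148 and 46.8 and 49.3 CPM in BT474 (edgeR adjusted p = 0.133). KRT16 was lower in CAL148, with the call lost in 1 of 17 other settings. Basal and myoepithelial markers were called higher for 4 (21.1%) and lower for 8 (42.1%) of 19 tested members (median log2 fold change -1.16). Basal markers numbered 3 higher and 2 lower without BT474 replicate 1 and 3 and 3 without BT474 replicate 2. KIT, a receptor kinase of luminal progenitors, was at 38.7 and 29.6 CPM in CAL148 and 0.0539 and 0.186 CPM in BT474 (log2 fold change 8.11), and TRIM29 at 0.244 and 0.233 CPM in CAL148 and 18.3 and 17.4 CPM in BT474 (log2 fold change -6.20). KRT19 and EPCAM were called without either CAL148 replicate.

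Vimentin (VIM) was low and lower in CAL148, at 7.06 and 10.3 CPM in CAL148 and 17.4 and 24.4 CPM in BT474 (adjusted p = 0.025). Stem cell markers were called higher for 5 (23.8%) and lower for 9 (42.9%) of 21 tested members (median log2 fold change -0.40). Stem cell markers numbered 1 higher and 5 lower without BT474 replicate 1, 1 and 3 without BT474 replicate 2 and 8 and 11 without CAL148 replicate 2. SOX2, a pluripotency factor, was at 36.4 and 65.9 CPM in CAL148 and 2.78 and 1.86 CPM in BT474 (log2 fold change 4.46) and PROM1, which encodes CD133, at 24.3 and 110.1 CPM in CAL148 and 1.43 and 1.38 CPM in BT474 (log2 fold change 5.58). CD44 was lower (0.794 and 2.18 CPM in CAL148 and 15.4 and 15.5 CPM in BT474), and ALDH1A1 had 0 counts in CAL148 against 12.2 and 26.4 CPM in BT474, at least 460.1-fold lower. VIM, PROM1 and CD44 lost the call without either BT474 replicate.

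Genes of the RB1 and E2F list were called higher for 10 (34.5%) and lower for 4 (13.8%) of 29 tested members (median log2 fold change 0.68). RB1 was at 3.45 and 4.35 CPM in CAL148 and 54.8 and 66.9 CPM in BT474, with both CAL148 libraries far below both BT474 libraries (log2 fold change -3.96, SE 0.25, adjusted p = 0.000521). CCND1 was nearly uncounted in CAL148, at 2.02 and 0.725 CPM in CAL148 and 434 and 423 CPM in BT474 (log2 fold change -8.30, SE 0.54, adjusted p = 0.000841). The cell cycle inhibitor CDKN2A was higher (21 and 39.5 CPM in CAL148 and 8.25 and 6.89 CPM in BT474, log2 fold change 2.00), and so were E2F1 (151 and 263 CPM in CAL148 and 33.8 and 39.9 CPM in BT474, 2.49) and CCNE1 (26.1 and 42.6 CPM in CAL148 and 12.3 and 16 CPM in BT474, 1.28). RBL1, the RB1 relative p107, was at 37.2 and 45 CPM in CAL148 and 2.13 and 3.33 CPM in BT474 (log2 fold change 3.91, SE 0.32, adjusted p = 0.000891), and RBL2, the relative p130, was lower (log2 fold change -1.52). CDK4 did not differ beyond the spread (log2 fold change -0.03, adjusted p = 0.911), but 43.2% of the exon bases of CDK4 are shared with TSPAN31. RB1 and E2F genes numbered 1 higher and 3 lower without BT474 replicate 1, 3 and 2 without BT474 replicate 2, 17 and 6 without CAL148 replicate 1 and 11 and 9 without CAL148 replicate 2. CDKN2A and CCNE1 lost the call without either BT474 replicate, E2F1 without BT474 replicate 1, RBL2 without BT474 replicate 2.

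DNA repair genes were called higher for 7 (25.9%) and lower for 1 (3.70%) of 27 tested members (median log2 fold change 0.29). Repair genes numbered 0 higher and 1 lower without BT474 replicate 1, 0 and 1 without BT474 replicate 2, 14 and 1 without CAL148 replicate 1 and 9 and 7 without CAL148 replicate 2. ATM, a damage-sensing kinase, differed by 1.06 and BRCA1 by 0.59, while RAD51C of chromosome 17 was at 18 and 20.9 CPM in CAL148 and 103 and 121 CPM in BT474 (log2 fold change -2.53). ATM and BRCA1 lost the call without either BT474 replicate.

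Proliferation genes had no single order between the lines, and the CAL148 replicates lay apart. Of 27 tested mitosis genes 0 were higher and 1, AURKA, was lower (median -0.19); 9 were higher and 2 lower without CAL148 replicate 1, and 0 were higher and 23 lower without CAL148 replicate 2, and 0 were called without either BT474 replicate. At an unadjusted p under 0.05 the reported fit held 1 higher and 2 lower mitosis genes, and DESeq2 called 1 and 2. The median difference of the list between CAL148 replicates 2 and 1 was 1.60 on the log2 scale. MKI67, the proliferation antigen, was at 85.4 and 395 CPM in CAL148 and 132 and 164 CPM in BT474, and TOP2A, a topoisomerase, at 172 and 523 CPM in CAL148 and 279 and 299 CPM in BT474; in both genes the BT474 values fell between the CAL148 replicates. Without CAL148 replicate 2, MKI67 had a log2 fold change of -0.79 and TOP2A of -0.75. Genes of the stress response to unfolded protein and amino acid shortage were called higher for 2 (7.41%) and lower for 1 (3.70%) of 27 tested members (median log2 fold change 0.08), and their median difference between CAL148 replicates 2 and 1 was -1.45. Genes of this response numbered 0 higher and 0 lower without BT474 replicate 1, 0 and 0 without BT474 replicate 2, 3 and 15 without CAL148 replicate 1 and 13 and 5 without CAL148 replicate 2. In that list SLC7A11, the cystine transporter, was at 179 and 4.48 CPM in CAL148 and 2.48 and 5.51 CPM in BT474, and ATF3 at 47.6 and 0.881 CPM in CAL148 and 4.04 and 5.08 CPM in BT474. MKI67, TOP2A and ATF3 were called without either CAL148 replicate, but in opposite directions. MKI67 and TOP2A were higher without replicate 1 and lower without replicate 2, and ATF3 the reverse. SLC7A11 was called without CAL148 replicate 2.

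**Figure D4:**
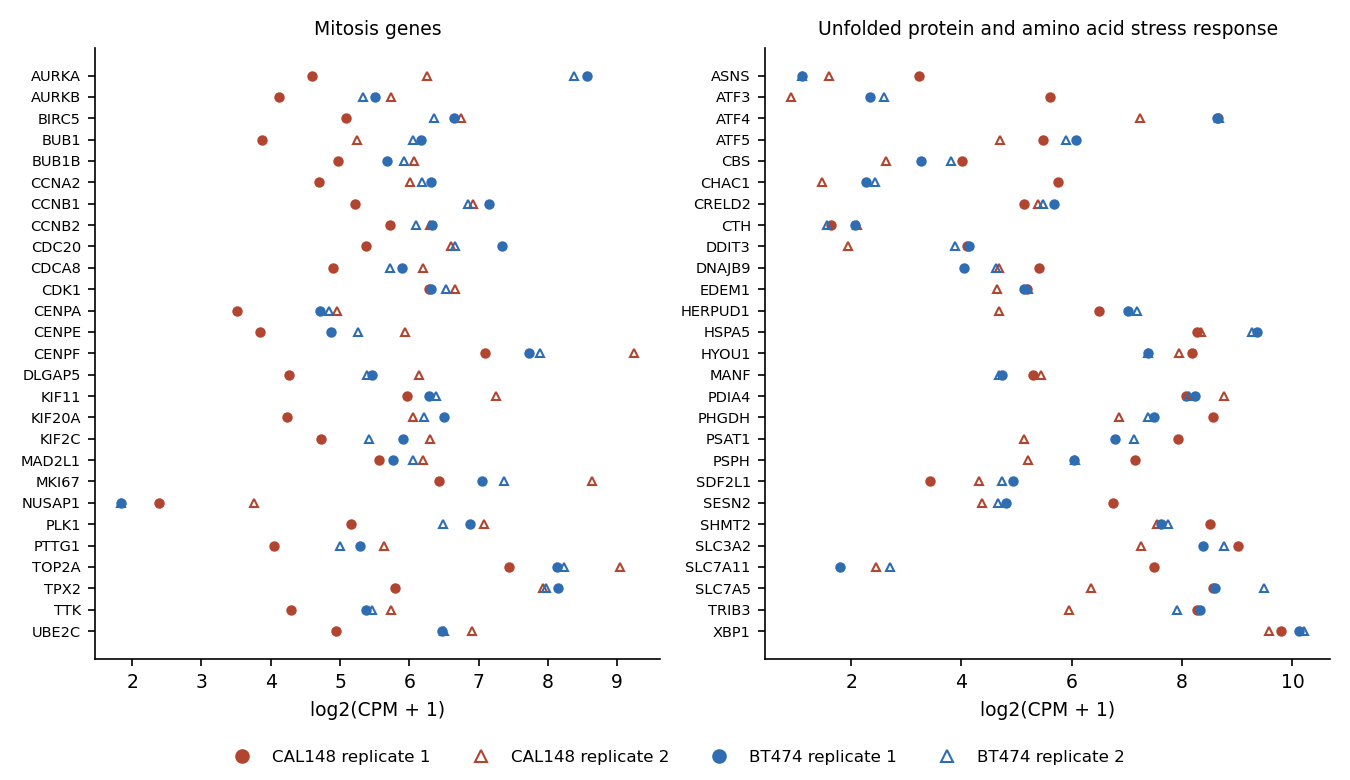
Tested mitosis genes (left) and stress response genes (right) in each library as log2(CPM + 1). CAL148 replicate 2 (open red) mostly lies right of replicate 1 (filled red) for mitosis genes and left of it for stress genes, whereas the BT474 replicates (blue) lie close together.

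Among growth factor receptors, EGFR and ERBB3 were not called. EGFR was at 38.9 and 38.5 CPM in CAL148 and 36.8 and 37.2 CPM in BT474 (adjusted p = 0.794), ERBB3 at 303 and 262 CPM in CAL148 and 292 and 294 CPM in BT474 (adjusted p = 0.809). The EGF receptor list was called higher for 5 (20.8%) and lower for 8 (33.3%) of 24 tested members (median log2 fold change 0.05). This family numbered 1 higher and 3 lower without BT474 replicate 1, 1 and 3 without BT474 replicate 2 and 9 and 9 without CAL148 replicate 2. The ligand AREG (-4.24) was lower on the log2 scale and EGF (2.46) and HBEGF (3.07) higher. The kinase SRC was at 161 and 154 CPM in CAL148 and 31.2 and 27.7 CPM in BT474 (log2 fold change 2.42). Of the other receptors, MET was at 0.916 and 2.18 CPM in CAL148 and 61 and 65 CPM in BT474 (log2 fold change -5.33) and RET at 2.44 and 1.58 CPM in CAL148 and 85.4 and 47.5 CPM in BT474 (log2 fold change -5.05). Genes of the PI3K list were called higher for 3 (10.3%) and lower for 10 (34.5%) of 29 tested members (median log2 fold change -0.50). IRS1, the insulin receptor substrate, was at 0.183 and 0.0518 CPM in CAL148 and 44.6 and 54.7 CPM in BT474 (log2 fold change -8.73), and INPP4B, a lipid phosphatase, at 9.41 and 1.04 CPM in CAL148 and 155 and 189.6 CPM in BT474 (log2 fold change -5.05). PIK3R1, the regulatory subunit, was higher (181 and 298 CPM in CAL148 and 64.4 and 66.4 CPM in BT474, log2 fold change 1.87). PI3K genes numbered 0 higher and 4 lower without BT474 replicate 1, 0 and 3 without BT474 replicate 2 and 6 and 13 without CAL148 replicate 2. AREG, EGF, HBEGF, INPP4B and PIK3R1 lost the call without either BT474 replicate.

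Heat shock proteins were called higher for 0 and lower for 14 (77.8%) of 18 tested members (median log2 fold change -1.06); higher members also numbered 0 at an unadjusted p under 0.05 in edgeR and 0 in DESeq2. HSPB1, a small heat shock protein, was at 105 and 72.2 CPM in CAL148 and 1761 and 1913 CPM in BT474 (log2 fold change -4.38, SE 0.25, adjusted p = 0.000447). HSPB8 was at 0.0611 and 0 CPM in CAL148 and 153 and 336 CPM in BT474, a ratio of 8747 (95% counting interval 2421 to 72233). HSP90AA1 was at 1096 and 1221 CPM in CAL148 and 3431 and 3698 CPM in BT474 (log2 fold change -1.62), STIP1, its co-chaperone, at 251 and 229 CPM in CAL148 and 1039 and 936 CPM in BT474 (log2 fold change -2.04), and HSPA8 at 1565 and 1124 CPM in CAL148 and 2649 and 2879.8 CPM in BT474 (log2 fold change -1.04). HSPA1A and HSPA1B are near-identical copies and their counts are uncertain. Heat shock proteins numbered 0 higher and 6 lower without BT474 replicate 1 and 0 and 6 without BT474 replicate 2. Cytosolic ribosomal proteins went the other way, called higher for 13 (43.3%) and lower for 3 (10.0%) of 30 tested members (median log2 fold change 0.52). RPS6 was at 1379.6 and 1108 CPM in CAL148 and 391 and 431 CPM in BT474 (log2 fold change 1.60) and RPLP1 at 1958 and 1464 CPM in CAL148 and 758 and 686 CPM in BT474 (log2 fold change 1.25). Of the 3 lower members, RPL19 and RPL23 lie near ERBB2 on chromosome 17, at log2 fold changes of -3.40 and -2.34, and RPS3 on chromosome 11 was at -0.92. Ribosomal proteins numbered 0 higher and 2 lower without BT474 replicate 1, 0 and 2 without BT474 replicate 2, 14 and 6 without CAL148 replicate 1 and 21 and 3 without CAL148 replicate 2. HSPB8 lost the call without CAL148 replicate 2, HSPA8, RPS6, RPLP1 and RPS3 without either BT474 replicate.

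Cholesterol genes were called higher for 1 (4%) and lower for 13 (52%) of 25 tested members (median log2 fold change -0.92). The epoxidase SQLE was at 22.6 and 40.5 CPM in CAL148 and 149.5 and 215 CPM in BT474 (log2 fold change -2.53) and HMGCS1 at 62.8 and 124 CPM in CAL148 and 239 and 499 CPM in BT474 (log2 fold change -1.98), and PMVK was the member that was higher (1.15). Fatty acid genes were called higher for 4 (14.3%) and lower for 11 (39.3%) of 28 tested members (median log2 fold change -0.44). FASN, the fatty acid synthase, was at 798 and 1333 CPM in CAL148 and 3234 and 3522 CPM in BT474 (log2 fold change -1.66), the acetate-activating enzyme ACSS2 at 26 and 41.9 CPM in CAL148 and 245 and 304 CPM in BT474 (log2 fold change -3.01), and ME1, which supplies NADPH, had 0 counts in CAL148 and 54.5 and 74.5 CPM in BT474. Cholesterol genes numbered 0 higher and 3 lower without BT474 replicate 1, 0 and 3 without BT474 replicate 2 and 3 and 14 without CAL148 replicate 1. Fatty acid genes numbered 1 higher and 6 lower without BT474 replicate 1 and 1 and 6 without BT474 replicate 2. HMGCS1 lost the call without either BT474 replicate or either CAL148 replicate, PMVK and FASN without either BT474 replicate.

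Nuclear genes of oxidative phosphorylation were called higher for 2 (6.67%) and lower for 11 (36.7%) of 30 tested members (median log2 fold change -0.39). SDHA, a subunit of complex II, was at 114 and 133 CPM in CAL148 and 520.3 and 469.6 CPM in BT474 (adjusted p = 0.00105). These genes numbered 0 higher and 4 lower without BT474 replicate 1 and 0 and 4 without BT474 replicate 2. Hypoxia genes were called higher for 9 (36%) and lower for 4 (16%) of 25 tested members (median log2 fold change 0.38). The lowest log2 fold change in the list was -5.72. Among the higher members, CA9 was at 4.61 and 8.06 CPM in CAL148 with 0 counts in BT474. VEGFA was at 203 and 103 CPM in CAL148 and 65 and 57.8 CPM in BT474 (log2 fold change 1.32). Of the exon bases of CA9, 38.5% are shared with ARHGEF39. Hypoxia genes numbered 1 higher and 3 lower without BT474 replicate 1 and 1 and 3 without BT474 replicate 2. VEGFA lost the call without either BT474 replicate.

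Interferon-stimulated genes were called higher for 0 and lower for 9 (32.1%) of 28 tested members (median log2 fold change -0.69); higher members numbered 1 at an unadjusted p under 0.05 in edgeR and 0 in DESeq2. MX2, an antiviral protein, was at 0.0916 and 0.363 CPM in CAL148 and 39.9 and 30.6 CPM in BT474 (log2 fold change -7.21), and DHX58, an RNA sensor, at 0.0611 and 0.0518 CPM in CAL148 and 12.5 and 14.2 CPM in BT474 (log2 fold change -7.81). B2M, the light chain of HLA class I, was at 69.1 and 41.1 CPM in CAL148 and 152 and 184 CPM in BT474 (log2 fold change -1.61), and TAP1, the peptide transporter, at 13 and 14.3 CPM in CAL148 and 37.5 and 34.8 CPM in BT474 (log2 fold change -1.41). Class I and antigen-processing genes were called higher for 2 (10.5%) and lower for 7 (36.8%) of 19 tested members (median log2 fold change -0.89). HLA genes are alike in sequence and differ between lines, so their counts are uncertain: HLA-C was at 53.2 and 48.5 CPM in CAL148 and 477 and 374 CPM in BT474. Interferon-stimulated genes numbered 0 higher and 3 lower without BT474 replicate 2 and 1 and 14 without CAL148 replicate 1. Class I genes numbered 1 higher and 1 lower without BT474 replicate 1, 0 and 2 without BT474 replicate 2, 3 and 11 without CAL148 replicate 1 and 2 and 11 without CAL148 replicate 2. B2M and TAP1 lost the call without either BT474 replicate.

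Genes linked to drug response differed in both directions. GSTP1, a glutathione transferase, was at 365 and 307 CPM in CAL148 and 0.135 and 0 CPM in BT474, with both CAL148 libraries high and BT474 at the edge of detection (log2 fold change 12.22, SE 0.64, adjusted p = 0.000498). ABCC3, an efflux pump on chromosome 17, was at 0.244 and 0.0518 CPM in CAL148 and 379 and 211 CPM in BT474 (log2 fold change -10.99). ABCB1 was too low to be tested, and ABCG2 was at 0 and 0.0518 CPM in CAL148 and 1.24 and 4.68 CPM in BT474, a ratio of 106 (95% counting interval 29 to 881). Tubulin genes, targets of taxanes, were called in both directions: TUBB6 was at 0.367 and 1.06 CPM in CAL148 and 34 and 28.6 CPM in BT474 (log2 fold change -5.43) and TUBA1A at 222 and 304 CPM in CAL148 and 27.2 and 10.3 CPM in BT474 (log2 fold change 3.81). TUBB2A and TUBB2B were also lower (-3.52 and -4.63), but they are near-identical copies. The list of chemotherapy targets was called higher for 6 (21.4%) and lower for 7 (25%) of 28 tested members (median log2 fold change -0.30), shares of 21.4% and 25% against 18.3% and 20.6% of all genes. Chemotherapy targets numbered 2 higher and 4 lower without BT474 replicate 1, 2 and 4 without BT474 replicate 2, 10 and 9 without CAL148 replicate 1 and 6 and 14 without CAL148 replicate 2. The BCL2 family was called higher for 4 (22.2%) and lower for 7 (38.9%) of 18 tested members (median log2 fold change -0.58). BCL2, an inhibitor of cell death, was at 6.84 and 2.64 CPM in CAL148 and 25.1 and 35.5 CPM in BT474 (log2 fold change -2.68). The pro-apoptotic BOK was at 103 and 149 CPM in CAL148 and 39.2 and 29.7 CPM in BT474 (log2 fold change 1.87). Other pro-apoptotic members, BIK, BAD and BAK1, were lower in CAL148. BIK and BAD lost the call without either BT474 replicate, BAK1 without BT474 replicate 1. ABCG2 and BOK lost the call without BT474 replicate 2, TUBA1A without either CAL148 replicate, BCL2 without either BT474 replicate.

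Wnt genes were called higher for 9 (36%) and lower for 7 (28%) of 25 tested members (median log2 fold change 0.72). Wnt genes numbered 1 higher and 3 lower without BT474 replicate 1 and 1 and 3 without BT474 replicate 2. The feedback and target genes AXIN2 (3.57 and 9.98 CPM in CAL148 and 0.539 and 0.106 CPM in BT474, log2 fold change 4.38), LEF1 (22.7 and 51.2 CPM in CAL148 and 1.94 and 3.81 CPM in BT474, 3.68) and SP5 (4.30) were higher. RNF43, a receptor-removing ligase and also a feedback target, was lower (-2.70), so such genes went both ways. WNT7B, a ligand, was lower (1.71 and 1.22 CPM in CAL148 and 37.8 and 38.9 CPM in BT474, log2 fold change -4.71). Notch genes were called higher for 4 (20.0%) and lower for 2 (10.0%) of 20 tested members (median log2 fold change -0.20), and the target HEY1 was at 7.30 and 9.04 CPM in CAL148 and 0.593 and 0.373 CPM in BT474 (log2 fold change 4.07). YAP1 was at 129 and 34.7 CPM in CAL148 and 394 and 497 CPM in BT474 (log2 fold change -2.45), and the YAP and TAZ list was called higher for 2 (10.5%) and lower for 7 (36.8%) of 19 tested members (median log2 fold change -0.94). Notch genes numbered 1 higher and 0 lower without BT474 replicate 1, 2 and 0 without BT474 replicate 2, 7 and 5 without CAL148 replicate 1 and 5 and 6 without CAL148 replicate 2. YAP and TAZ targets numbered 1 higher and 3 lower without BT474 replicate 1 and 1 and 3 without BT474 replicate 2. Matrix genes were called higher for 4 (17.4%) and lower for 8 (34.8%) of 23 tested members (median log2 fold change -0.22). Matrix genes numbered 2 higher and 4 lower without BT474 replicate 1 and 2 and 5 without BT474 replicate 2. The collagen COL12A1 was at 0.550 and 0.155 CPM in CAL148 and 186 and 334 CPM in BT474 (log2 fold change -9.56), while COL4A5 was higher (4.02). Of the 4 tested fibroblast markers 3 (75%) were lower in CAL148, against 20.6% of all genes. COL1A1 was among them, at 6.84 and 1.92 CPM in CAL148 and 84.5 and 83.3 CPM in BT474. The part of these markers in the matrix result was not tested. AXIN2, SP5, YAP1 and COL1A1 lost the call without either BT474 replicate, LEF1 without BT474 replicate 1.

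The lines also differed by genes counted in one and absent from the other. Among protein-coding genes with at least 5 CPM in both libraries of a line, 30 had 0 counts in BT474 and 35 had 0 counts in CAL148. PREX1, an exchange factor for the small GTPase RAC, was at 1112 and 1296 CPM in BT474 and at 0 in CAL148, at least 28642-fold lower. TCN1, a carrier of vitamin B12, was at 867 and 1425 CPM in BT474 (at least 27296-fold lower in CAL148). Of the 35 genes missing from CAL148, 17 had at least 20 counts, summed over 2 libraries, in the monolayers of both HCC1806 and ZR-75-30. PLS3, ADD3, ME1, RAB32 and SKAP2 were among them. The same held for 8 of the 30 genes missing from BT474, TRIM4, SMIM20 and IFT57 among them. On the other side, TRIM4 was at 157 and 93.4 CPM in CAL148 (at least 3046-fold higher), SLFN13 at 88.9 and 136, ALKBH3, a DNA repair demethylase, at 25.1 and 20.1 and BMP5, a secreted growth factor, at 62 and 25.9 CPM, with 0 counts in BT474. NKX2-1, a thyroid and lung lineage factor, was at 187 and 167 CPM in CAL148 against 1 count in BT474, a ratio of 13145 (95% counting interval 2359 to 519248), and SFTA3, beside it on chromosome 14, at 42.8 and 26.4 CPM against 0. TMCO1, a calcium channel of the endoplasmic reticulum, was at 208 and 181 CPM against 1 count, a ratio of 14420.3 (95% counting interval 2588 to 569614). The 30 genes missing from BT474 monolayers stayed at or near 0 in the 4 BT474 spheroid libraries: 10 had 0 counts there, and the highest summed count was 25.

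The stretches before the start sites of 4 such genes are shown, a pair with many CG dinucleotides and a pair with few, because genes missing from a line had promoters of both kinds. The sequences are from RefSeq on GRCh38.p14, 5′ to 3′ on the gene's strand, without annotated exon bases, and capitals mark CG dinucleotides. PREX1 (chr20:48828000-48828249, minus strand, up to the start site) holds 39, ME1 (chr6:83431072-83431301, minus strand) 21, TCN1 (chr11:59866576-59866737, minus strand) 1 and BMP5 (chr6:55875591-55875840, minus strand, up to the start site) 1.
PREX1: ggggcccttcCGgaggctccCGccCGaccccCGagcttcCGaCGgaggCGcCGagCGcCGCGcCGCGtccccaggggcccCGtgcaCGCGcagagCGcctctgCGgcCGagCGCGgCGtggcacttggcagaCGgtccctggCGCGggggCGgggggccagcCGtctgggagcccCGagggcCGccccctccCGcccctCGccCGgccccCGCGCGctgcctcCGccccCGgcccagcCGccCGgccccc
ME1: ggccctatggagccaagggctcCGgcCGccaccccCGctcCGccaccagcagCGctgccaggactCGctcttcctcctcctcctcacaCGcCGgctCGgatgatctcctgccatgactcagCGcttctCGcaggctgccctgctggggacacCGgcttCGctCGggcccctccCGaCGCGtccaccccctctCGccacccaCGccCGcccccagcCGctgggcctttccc
TCN1: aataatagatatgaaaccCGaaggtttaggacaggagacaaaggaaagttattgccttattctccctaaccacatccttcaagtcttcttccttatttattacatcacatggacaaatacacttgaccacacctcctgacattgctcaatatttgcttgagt
BMP5: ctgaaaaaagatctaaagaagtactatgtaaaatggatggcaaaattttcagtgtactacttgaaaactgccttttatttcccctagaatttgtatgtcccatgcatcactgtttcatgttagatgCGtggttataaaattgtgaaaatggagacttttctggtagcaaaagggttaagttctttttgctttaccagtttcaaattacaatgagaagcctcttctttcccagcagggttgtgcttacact
PREX1 and ME1, both CG-rich, and TCN1, CG-poor, all had 0 counts in CAL148, and BMP5, CG-poor, had 0 counts in BT474. The median number of CG dinucleotides in the 250 bases before a start site was 12 for genes missing from BT474 (32 start sites of 24 genes), 11.5 for genes missing from CAL148 (36 start sites of 28 genes) and 20 for all tested protein-coding genes (16321 start sites of 11186 of 13777 genes). DNA methylation was not measured.

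Motifs were searched on both strands of the same windows, and their shares were close between higher, lower and all tested protein-coding genes. The forkhead motif TGTTTAC was found before 2.38% of start sites of higher genes, 2.21% of lower genes, 2.27% of all tested protein-coding genes and 2.98% of all promoters from RefSeq. For the GATA motif AGATAA the shares in that order were 4.98%, 5.42%, 5.15% and 9.17%, and for the AP-2 motif GCCNNNGGC 25.9%, 27.1%, 26.5% and 19.8%. Both E2F motifs (TTTCCCGC or TTTGGCGC) together were found before 2.85%, 2.43%, 2.72% and 1.93%, and the TATA box TATAAA before 5.97%, 6.55%, 6.17% and 10.7%. The oestrogen response palindrome was found at 14 of 35116 promoters (0.0399%), 0 of them before called protein-coding genes. These matches describe letters in a short window and say nothing of binding.

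Among called protein-coding genes that met the rule for named genes and were counted at least 10 times in each of the 4 libraries, a condition added after the data were seen, the 12 highest log2 fold changes ran from 7.76 to 6.09. NR2F1, an orphan nuclear receptor, was at 142 and 27.6 CPM in CAL148 and 0.377 and 0.399 CPM in BT474 (log2 fold change 7.76, SE 1.06, adjusted p = 0.00648), and PIK3C2G, a lipid kinase, at 169 and 98.5 CPM in CAL148 and 0.485 and 1.14 CPM in BT474 (log2 fold change 7.35). The spans of PIK3C2G and RERGL overlap on opposite strands of chromosome 12, and RERGL was at 43.8 and 30.2 CPM in CAL148 with 0 counts in BT474. CHST2 (7.23), DUSP23 (7.16), FKBP5 (6.85), SLC44A4 (6.63), PPP1R1B (6.59), LRRC31 (6.47), ZIC2 (6.23), CCDC106 (6.22), PLEKHO1 (6.11) and FBXO38 (6.09) followed on the log2 scale. FBXO38, expressed widely, was at 51.2 and 44.2 CPM in CAL148 and 0.862 and 0.532 CPM in BT474. In the other direction the order was TFF1 (-8.90), IGFBP4 (-8.67), MUC6, CCND1 (-8.30), MISP (-8.03), MSX2, GREB1 (-7.67), ACOT2, ACSS1, KRT7 (-6.77), HS6ST2 (-6.76) and LMX1B (-6.73). MUC6, a gel-forming mucin, was at 0.641 and 0.596 CPM in CAL148 and 265 and 242 CPM in BT474 (log2 fold change -8.67, SE 0.23, adjusted p = 0.000251), MSX2, a homeobox factor, at 0.519 and 0.311 CPM in CAL148 and 66.8 and 106 CPM in BT474 (log2 fold change -7.70), and the mitochondrial enzymes ACOT2 (-7.27) and ACSS1 (-7.22) were lower on the same scale. NR2F1, CHST2, FKBP5 and PPP1R1B lost the call without either BT474 replicate, ZIC2 without BT474 replicate 2, GREB1 without CAL148 replicate 2.

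**Figure D5:**
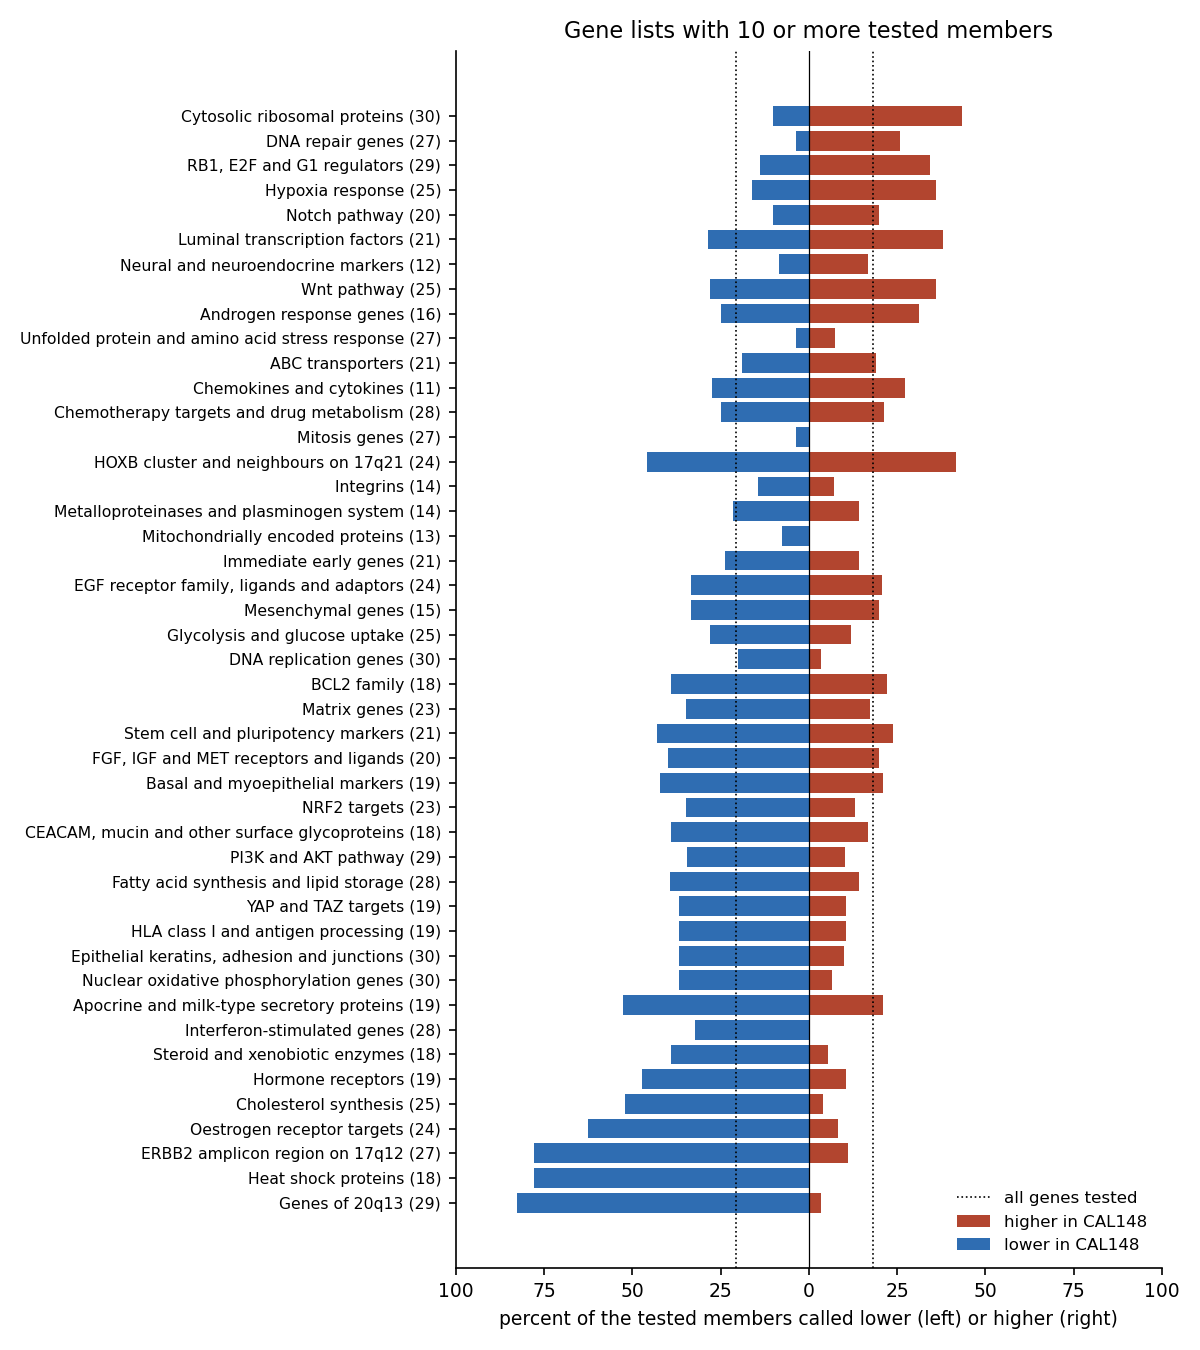
Percent of tested members called higher (right, red) or lower (left, blue) in CAL148 for lists with at least 10 tested members, with the number tested in brackets; dotted lines mark 18.3% and 20.6%, the shares over all tested genes. Heat shock proteins and genes of 17q12 and 20q13 reach furthest to the left, cytosolic ribosomal proteins furthest to the right.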

How the data were processed

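Each library is poly(A)-selected RNA read as 150 bp pairs, per the labels. Per the submitters' processing notes the authors used HISAT2 2.2.1 and featureCounts 2.0.6 with GRCh38; whether counting used strand, and how multi-mapping reads were treated, is not given in the sources used here. The deposited gene counts are whole numbers, not normalized; low counts were even 1.57 to 1.79 times as often as odd, so counts may hold both mates of a pair and counting intervals may then be too narrow. The FPKM values deposited by the authors derive from the same counts and served for 1 alternative.

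Counts of the 4 libraries, grouped by sample title, were filtered with filterByExpr (minimum 10 counts, total 15), scaled by TMM and compared with edgeR 4.0.16 (quasi-likelihood F test, robust, R 4.3.3). P-values were adjusted by Benjamini-Hochberg over all 17652 genes and called under 0.05. CPM are counts divided by the TMM-scaled library total in M. For genes with 0 counts in a line, folds are bounds against 3 counts over the 2 libraries; for 1 to 3 counts, ratios carry exact 95% intervals, which cover counting error only. DESeq2 1.42.0, limma 3.58.1 and other settings were alternatives.

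The members and lists were chosen with earlier results of these data known. Named genes are the 12 highest and 12 lowest protein-coding calls with a mean CPM of at least 5, a panel of breast cancer genes and up to 4 called members of each list; list members named beyond these were chosen after their values were seen. Replicate numbers were not treated as pairs (correlation of deviations -0.0257), and the labels do not say whether they pair cultures. Replicates of CAL148 and BT474 were not merged or left out. Of 1224 listed symbols 1221 matched and 990 were tested, in 53 lists. Promoters were matched by symbol or synonym and position. Some results are not reported here.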

Additional observations from a re-analysis of the deposited data

How the results depend on the processing

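Over 17 other settings, 0 of the 6870 genes called in the reported fit were called in the opposite direction in any of them. The 234 called named genes kept their sign, 107 of them with the call in each setting. Genes not called in the reported fit are not covered by this count. A fit to the 8 monolayer libraries gave 489 higher and 760 lower genes. Leaving out 1 library at a time gave between 525 and 4397 higher and between 928 and 5018 lower genes, the lowest without a BT474 library and the highest without a CAL148 library. ABCC11 reversed to a log2 fold change of -2.86 without CAL148 replicate 1 (reported 0.90; 1.85 without replicate 2). MKI67 reversed to -0.79 (reported 0.70; 1.42 without replicate 1) and TOP2A to -0.75 (reported 0.27; 0.86 without replicate 1) without CAL148 replicate 2; none of these was called in the reported fit, and the cause was not tested. With the replicate number as a block, 2484 genes were higher and 3085 lower. Replicate numbers are not said to mark a shared culture or day. Same-numbered deviations correlated at -0.0257, but with 2 libraries a line this cannot show whether the numbers pair cultures. Tool, scaling and filter moved the counts between 3032 and 3929 higher and between 3219 and 4443 lower (DESeq2 3578 and 4052, limma on log2 FPKM 3139 and 3619). With all 16 libraries the counts were 2219 and 2985. The list of mitochondrially encoded proteins has no value where mitochondrial and ribosomal genes were removed.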

Other observations

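Surface glycoproteins and secreted factors described in none of the comparisons above also differed. CEACAM5, the carcinoembryonic antigen, was at 111 and 323 CPM in CAL148 and 5.88 and 6.87 CPM in BT474 (log2 fold change 5.09, SE 0.60, adjusted p = 0.0041), and MUC16, which carries the CA125 antigen, was at 3.15 and 8.91 CPM in CAL148 and 0.108 and 0.160 CPM in BT474 (log2 fold change 5.46). The list of such glycoproteins was called higher for 3 (16.7%) and lower for 7 (38.9%) of 18 tested members (median log2 fold change -0.49). Glycoprotein genes numbered 0 higher and 2 lower without BT474 replicate 1, 0 and 3 without BT474 replicate 2 and 5 and 8 without CAL148 replicate 1. The chemokine CXCL14 was at 22.1 and 39.5 CPM in CAL148 and 0.189 and 0.106 CPM in BT474 (log2 fold change 7.67), and CX3CL1 at 0.0611 and 0 CPM in CAL148 and 31.3 and 16.8 CPM in BT474, a ratio of 856 (95% counting interval 237 to 7076). Glycolysis genes were called higher for 3 (12%) and lower for 7 (28%) of 25 tested members (median log2 fold change -0.04). Glycolysis genes numbered 1 higher and 3 lower without BT474 replicate 1, 1 and 4 without BT474 replicate 2, 6 and 8 without CAL148 replicate 1 and 3 and 11 without CAL148 replicate 2. The lactate transporter SLC16A1 was at 27.8 and 28.8 CPM in CAL148 and 1.72 and 2.02 CPM in BT474 (log2 fold change 3.92), and the hexokinase HK1 at 122 and 109.9 CPM in CAL148 and 588 and 539 CPM in BT474 (log2 fold change -2.28). CEACAM5 and MUC16 lost the call without either BT474 replicate.

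Within CAL148, 65 of 9395 genes with a mean of at least 10 CPM were at least 4-fold higher in replicate 2 than in replicate 1 and 64 at least 4-fold lower, on the log2(CPM + 0.5) scale. MGP, a matrix protein, was at 66.1 and 0.181 CPM in replicates 1 and 2, GPX8 at 60.3 and 0.259 CPM, SPRY4 at 39.1 and 0.311 CPM and the stress-induced factor GDF15 at 302 and 15.3 CPM. CENPF, a mitotic gene, was at 136 and 605 CPM. With 1 library on each side these differences have no replicate check. SPRY4 and CENPF were called without either CAL148 replicate, but in opposite directions. SPRY4 was lower without replicate 1 and higher without replicate 2, and CENPF the reverse. GDF15 was called without CAL148 replicate 1.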
